A study of Mus musculus with 9 samples.

Results

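Circular RNAs (circRNAs) from 10 genes of the muscle sarcomere other than titin were followed through differentiation of C2C12, an established line of mouse skeletal myoblasts. The genes are Tnnt1, Myh3, Myom1, Myom2, Neb, Unc45b, Speg, Actn3, Ldb3 and Pdlim5, and every circRNA that the deposited table assigns to 1 of them alone was included. They gave 62 of 37751 circRNAs and 10 of 6943 host genes, with 2341 back-splice reads in all. Day 0 stands for cells that were still dividing below confluence in DMEM with 10% fetal bovine serum. Days 3 and 6 were counted from confluence, when the medium was changed to DMEM with 2% horse serum. Each day has 3 libraries, 9 in all, from total RNA that had been cleaned on beads with a DNase step meant to enrich circRNAs, and each library was made with an mRNA-seq kit. All 9 libraries come from the same line, and no genetic change or drug is named. Nothing states that libraries of 1 day come from separate cultures, and p-values therefore measure the spread between these samples alone, which may be technical.

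The sarcomere is the contractile unit of striated muscle. Thin filaments of actin carry troponin and tropomyosin and are anchored in the Z-disc by alpha-actinin, while thick filaments of myosin are crosslinked at the M-band by myomesins. A circRNA forms when the donor splice site at the end of an exon joins the acceptor site at the start of the same or an upstream exon, and a read across that back-splice junction tells it from the linear mRNA. The table holds back-splice reads only, so circular and linear output of a gene could not be compared.

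The leading circles differ in which splice sites they join, and those sites define each circRNA. The lines below give 15 bases on each side of the back-splice junction, 5′ to 3′ on the strand of the gene, read from the GENCODE transcripts of GRCm38. Lower case marks the end of the last exon of the circle and capitals mark the start of its first exon. The Speg pair is shown because its circles share a donor, the Pdlim5 pair because both hold exon 10, and the others because each led its host in reads.
Tnnt1 exons 2 to 10, chr7:4509011-4514379, minus strand: ggctacctggtcaagGTCTCTCCAGGATGT
Myh3 exons 24 to 25, chr11:67093137-67093586, plus strand: cgagaggctcaagaaGTCAAAAACCTTACC
Myom1 exons 6 to 10, chr17:71044486-71052775, plus strand: acgtctttgttcgagGTATAAGAACCAGGT
Myom2 exons 2 to 13, chr8:15063843-15085314, plus strand: aggatgatcttgaagGAACACTCAAGATGT
Unc45b exons 10 to 13, chr11:82925887-82929561, plus strand: gaggagcaccccaagGAGCAAATTTGACCC
Speg exons 2 to 9, chr1:75384656-75402473, plus strand: gcctggaggtccgagACTCGGAGACTGCCG
Speg exons 7 to 9, chr1:75401055-75402473, plus strand: gcctggaggtccgagGCGGCTCCACATCCC
Pdlim5 exons 10 to 11, chr3:142259130-142278001, minus strand: caaccaagttatcagTAGCACCCAGGAGCC
Pdlim5 exons 7 to 10, chr3:142277817-142284916, minus strand: gtccaaaccaagcagGTTTTACAGTTCTCT
Both Speg circles end in the same lower-case bases, those of the donor of exon 9, and differ in the acceptor. The Pdlim5 circles both hold exon 10, which opens the first and closes the second.

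Tnnt1 rose at both days. The circRNAs of Myh3, Myom1, Myom2, Neb, Unc45b and Actn3 were listed at 0 in every day 0 library and appeared in some libraries of days 3 and 6. Speg, Pdlim5 and Ldb3 already gave circRNAs in dividing cells, and Ldb3 was listed at 0 in every day 6 library. Levels below are in CPM, a host's reads relative to all host reads of the library after TMM scaling, and changes are log2 fold changes of edgeR's quasi-likelihood test with an approximate standard error (SE). Of the 10 hosts, edgeR called 1, Tnnt1, at an adjusted p under 0.05 in day 3 against day 0, where 3.94% of the 4135 hosts tested were called. It called the same 1 of 10 in day 6 against day 0, against 5.63% of hosts. In day 6 against day 3 edgeR called 0 of 10, against 0.0726% of hosts. DESeq2 also called 0 there. An unadjusted edgeR p under 0.05 was found for 2 of the 10, Speg and Ldb3, both lower. Among all 4135 hosts tested it was found for 151 lower and 95 higher. The 10 hosts passed the filter on low counts, several of them through their day 3 and day 6 libraries alone.

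**Figure D1:**
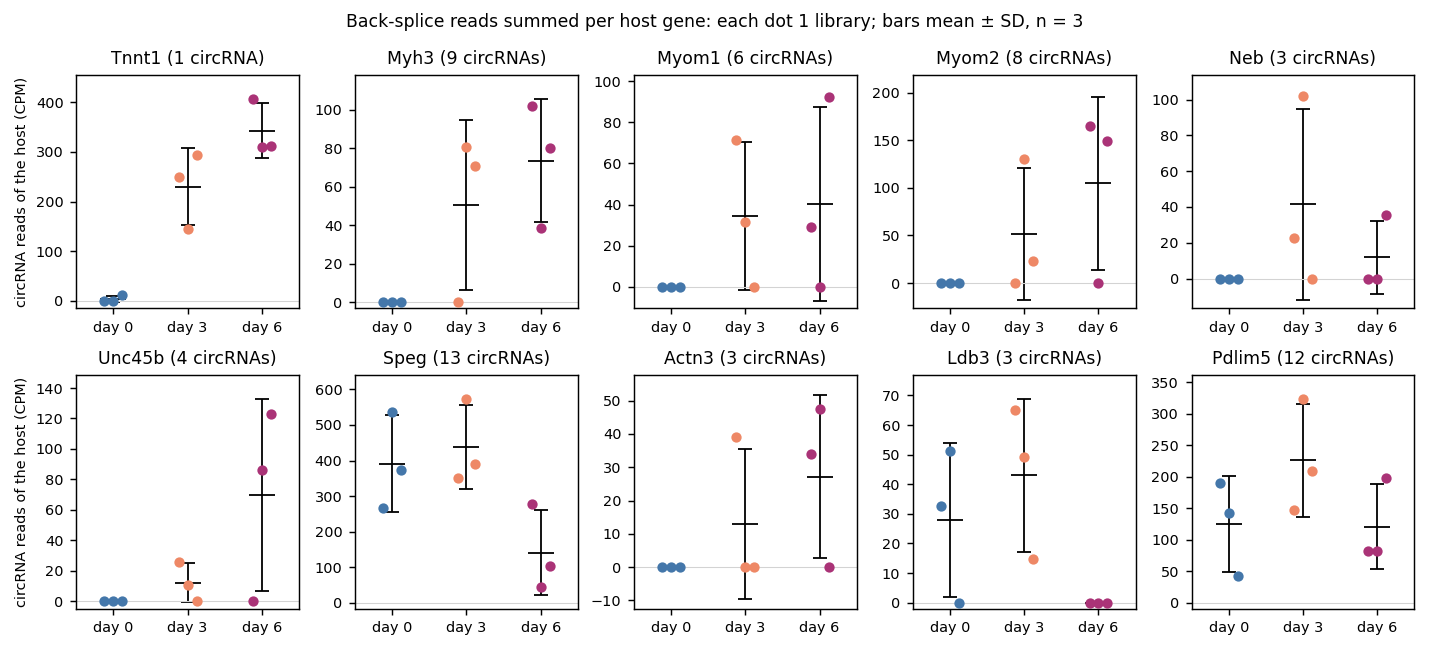
Level of each host in CPM (vertical axis, linear, its own scale per panel) at days 0, 3 and 6 (horizontal axis). Each dot is 1 library, the long bar is the mean and the whiskers are the SD of 3 libraries. Tnnt1 means were 3.80, 230 and 343 CPM, and those of Speg 391, 438 and 141 CPM. The 3 day 0 dots of Myh3, Myom1, Myom2, Neb, Unc45b and Actn3 lie at 0, as do the 3 day 6 dots of Ldb3.

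Total back-splice reads ran from 208787 to 443955 per library, both extremes at day 6. At this depth 3 reads in a library, the limit assumed for a count of 0, stand for 8.94 to 11.8 CPM at day 0. Counts above 0 start at 2, so a host at 0 may still have had single reads of several circRNAs. The fold bounds below hold only under the assumed limit. Without molecular identifiers such limits and all intervals cover counting error only. Hosts that mark dividing cells (8 of 8 with reads) summed to between 8798 and 10369 CPM at day 0, 2188 and 2592 at day 3, and 983 and 1212 at day 6, where Mki67 and Kif14 were listed at 0. Muscle differentiation hosts outside the sarcomere (7 of 7) summed to between 804 and 831, 4197 and 5278, and 6064 and 7471 CPM. Of these hosts 4 passed the filter on low counts. Mef2c, Atp2a1, Cacna1s and Dmd were at 0 at day 0, Cacna1s and Dmd at day 3, and Atp2a1 at day 6. The sums therefore do not show that each muscle host rose. Of the adipocyte markers 1 of 6 had reads, Pparg, with 94.9 to 422, 112 to 277 and 99.1 to 213 CPM, and Cebpa, Fabp4, Adipoq, Plin1 and Lpl were at 0. The osteoblast list (2 of 6 with reads) gave 235 to 319, 277 to 601 and 284 to 441 CPM, with Sp7, Alpl, Ibsp and Bglap at 0 in all libraries. Col1a1 was at 0 on days 0 and 3. Reserve cell markers (3 of 6) gave 134 to 300, 169 to 377 and 177 to 280 CPM, with Spry1, Calcr and Hes1 at 0. Cd34 was also at 0 at day 3. The sums of the dividing and muscle lists move with day, as does Tnnt1, and the part of these lists in the results was not tested. The hosts at 0 on day 0 lie at or above their day 0 level by the way they were grouped. In bulk RNA a change in the number of cells of a kind cannot be told apart from a change in RNA per cell.

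In the thin filament, Tnnt1 encodes the slow skeletal troponin T, which ties the troponin complex to tropomyosin. All of its reads came from 1 circRNA, exons 2 to 10 of 14, with a spliced length of 512 nt, of which 501 nt are coding. Day 0 libraries held 0, 0 and 3 reads, day 3 libraries 77, 41 and 100, and day 6 libraries 84, 72 and 132. The corresponding levels were 0, 0 and 11.4 CPM at day 0, 251, 144 and 295 CPM at day 3, and 407, 310 and 312 CPM at day 6. Every day 3 and day 6 library stood above every day 0 library, as for 10.4% and 11% of tested hosts. The mean rose from 3.80 ± 6.58 to 230 ± 77.6 CPM at day 3 (SD, n = 3), which is 5.84 ± 0.93 on the log2 scale (SE, with an adjusted p of 4.3e-05 in edgeR). At day 6 it was 343 ± 55.5 CPM, 6.41 ± 0.94 above day 0 on the log2 scale (adjusted p of 7.0e-06 in edgeR). The size of both rests on the 3 reads of day 0 replicate 3. Without that library day 0 was at 0, and the level was at least 22.3-fold higher at day 3 and at least 33.3-fold higher at day 6. Without day 0 replicate 1 the log2 fold changes were 5.20 and 5.77. Day 6 against day 3 gave 0.58 ± 0.67 (edgeR adjusted p = 1), and the day 6 libraries stood just above those of day 3, as for 5.3% of tested hosts. When libraries were scaled by all circRNA reads instead, the lowest day 6 level, 292 CPM, and the highest day 3 level, 293 CPM, overlapped.

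Neb encodes nebulin, a giant protein that runs along the thin filament. It gave 3 circRNAs and 51 reads, listed in 3 libraries. Levels were 22.8, 102 and 0 CPM at day 3 and 0, 0 and 35.4 CPM at day 6. Only 1 library of each day stood well above the others, and both days overlapped day 0. Against the day 0 limit the mean was at least 3.88-fold higher at day 3 and at least 1.10-fold higher at day 6, and neither was called (edgeR adjusted p = 0.372 and 0.387). Without day 3 replicate 2 the day 3 bound was 1.07-fold, and without day 3 replicate 3 it was 5.83-fold. At day 6 it was 1.66-fold without replicate 1 or replicate 2, and without replicate 3 Neb was at 0 in both groups. The donor of exon 143 of 157 closed 2 of the 3 circles and 70.6% of Neb reads. The leading circle, exons 139 to 143 (chr2:52161371-52164702, minus strand), held 14 reads in day 3 replicate 2 and 15 in day 6 replicate 3.

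In the thick filament, Myh3 encodes the embryonic myosin heavy chain, an early isoform of developing and regenerating muscle. It gave 9 circRNAs and 111 reads, and 8 of the 9 were listed in a single library. Levels were 0, 80.8 and 70.8 CPM at day 3 and 102, 38.8 and 80.3 CPM at day 6. Day 6 libraries all stood above day 0, and day 3 overlapped day 0 through replicate 1. The mean was at least 4.71-fold higher at day 3 (edgeR adjusted p = 0.196) and at least 6.87-fold higher at day 6 (edgeR adjusted p = 0.118), and neither was called. DESeq2 called both, with adjusted p = 0.0400 and 0.0130. With only circRNAs listed in at least 2 libraries the bounds were 2.91-fold and 1.42-fold (edgeR adjusted p = 0.355 and 0.323). Without day 3 replicate 1, which was at 0, the day 3 bound was 7.09-fold. It was 3.31-fold without day 3 replicate 2 and 3.78-fold without day 3 replicate 3. The circle of exons 24 to 25 of 41 held 47 of the reads, with 0, 8 and 24 at day 3 and 5, 0 and 10 at day 6. Its spliced length is 323 nt. The next ones, exons 27 to 30 with 17 reads and exons 31 to 32 with 16, each came from 1 day 6 library. Myosin heavy chain genes form a cluster on chromosome 11 with closely similar exons, and how reads that match several of them were assigned is not given in the sources used here, so the split between them is uncertain.

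Unc45b encodes a chaperone that folds the myosin head in striated muscle. Its 4 circRNAs held 83 reads. Levels were 26.0, 10.5 and 0 CPM at day 3 and 0, 86.2 and 123 CPM at day 6. The day 6 values lay both at 0 and above every day 3 value. The mean was at least 1.14-fold higher than day 0 at day 3 and at least 6.50-fold higher at day 6 (edgeR adjusted p = 0.429 and 0.213), and neither was called. The day 6 bound was 3.96-fold without day 6 replicate 3 and 9.80-fold without day 6 replicate 1, and the day 3 bound was 1.71-fold without day 3 replicate 3, while without day 3 replicate 1 both groups lay under the limit and no fold is given. Exons 10 to 13 of 20 gave 8 reads in day 3 replicate 1 and 37 in day 6 replicate 3. A circle of exons 8 to 10 (chr11:82919724-82926187, plus strand) was listed in day 6 replicates 2 and 3 with 14 and 15 reads. Both circles include exon 10.

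At the M-band, Myom1 and Myom2 encode the myomesins that crosslink thick filaments. Myom1 gave 6 circRNAs and 76 reads, and Myom2 gave 8 and 142. Myom1 levels were 71.6, 31.6 and 0 CPM at day 3 and 29.1, 0 and 92.1 CPM at day 6. Myom2 levels were 0, 130 and 23.6 CPM at day 3 and 165, 0 and 149 CPM at day 6. Each gene was at 0 in 1 library of each later day, so both days overlapped day 0. Day 3 replicate 1 was the highest of its day for Myom1 and at 0 for Myom2. Myom1 was at least 3.21-fold higher than day 0 at day 3 and at least 3.77-fold higher at day 6 (edgeR adjusted p = 0.363 and 0.269). Myom2 was at least 4.78-fold and at least 9.76-fold higher (edgeR adjusted p = 0.177 and 0.0757). None of these was called by edgeR. DESeq2 called the day 6 difference of Myom2 with adjusted p = 0.0116, and edgeR did so without day 6 replicate 2, at least 14.7-fold higher with adjusted p = 0.0168, and without day 3 replicate 1 with adjusted p = 0.0384. Without day 6 replicate 1 or 3 it did not, at least 6.98-fold and at least 7.52-fold higher (edgeR adjusted p = 0.161 and 0.150). The day 3 bound of Myom2 was 1.10-fold without day 3 replicate 2 and 7.19-fold without day 3 replicate 1, and 2.60-fold with only circRNAs listed in at least 2 libraries. For Myom1 the day 3 bound was 1.48-fold without replicate 1 and 4.83-fold without replicate 3 of that day, and the day 6 bound 1.33-fold without replicate 3 and 5.68-fold without replicate 2 of that day.

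Each myomesin gene used a few splice sites repeatedly. The acceptor of exon 6 of Myom1 opened 3 of its 6 circles and 57.9% of its reads, ending at exons 9, 10 and 11. The circle of exons 6 to 10 had 13 reads in day 3 replicate 1 and 11 in day 6 replicate 3. Exons 3 to 10 (chr17:71034571-71052775) and 6 to 11 (chr17:71044486-71061266) had 14 each, all in day 6 replicate 3. For Myom2 the donor of exon 13 closed 3 of 8 circles and 48.6% of reads, starting at exons 2, 7 and 11. Its leading circle, exons 2 to 13 of 37, has a spliced length of 1527 nt and held 9 reads in day 3 replicate 2 and 36 in day 6 replicate 3. Exons 11 to 17 (chr8:15083230-15104188) gave 16 reads in day 3 replicate 2, 12 in day 6 replicate 1 and 6 in day 6 replicate 3. The same exon 11 acceptor opened a circle of exons 11 to 13 with 11 and 5 reads in those day 6 libraries. A further row of 4 reads, in day 3 replicate 1, names both Gm26561 and Myom1 and was kept out.

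In the Z-disc, Actn3 encodes the alpha-actinin of fast muscle fibres, which crosslinks thin filaments. Its 3 circRNAs held 30 reads, the fewest of the 10 hosts. Levels were 39.0, 0 and 0 CPM at day 3 and 33.9, 47.4 and 0 CPM at day 6. With 3 libraries above 0 in all, both days overlapped day 0. The mean was at least 1.21-fold higher than day 0 at day 3 and at least 2.53-fold higher at day 6 (edgeR adjusted p = 0.470 and 0.306), and neither was called. The day 3 bound rests on replicate 1, without which Actn3 was at 0 in both groups, and it was 1.83-fold without replicate 2 or replicate 3. The day 6 bound was 1.58-fold without day 6 replicate 2. The acceptor of exon 7 of 21 opened 2 of the 3 circles and 90.0% of reads. Exons 7 to 12 (chr19:4865299-4870993, minus strand) held 7 and 8 reads in day 6 replicates 1 and 2, and exons 7 to 11 held 12 in day 3 replicate 1.

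Counted together, the 6 hosts listed at 0 on day 0 gave 0 of 811175 reads at day 0, 182 of 971711 at day 3 and 311 of 896213 at day 6. Of all tested hosts 5.08% were at 0 in every day 0 library. Their summed levels were 159, 355 and 94.4 CPM at day 3 and 330, 172 and 480 CPM at day 6. The day 0 sum is 0 by the choice of these hosts, so the sums are a description. Single hosts were at 0 in up to 2 libraries of a later day. Of their 33 circRNAs, 24 were listed in 1 library, 9 in at least 2 and 2 in at least 3.

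**Figure D2:**
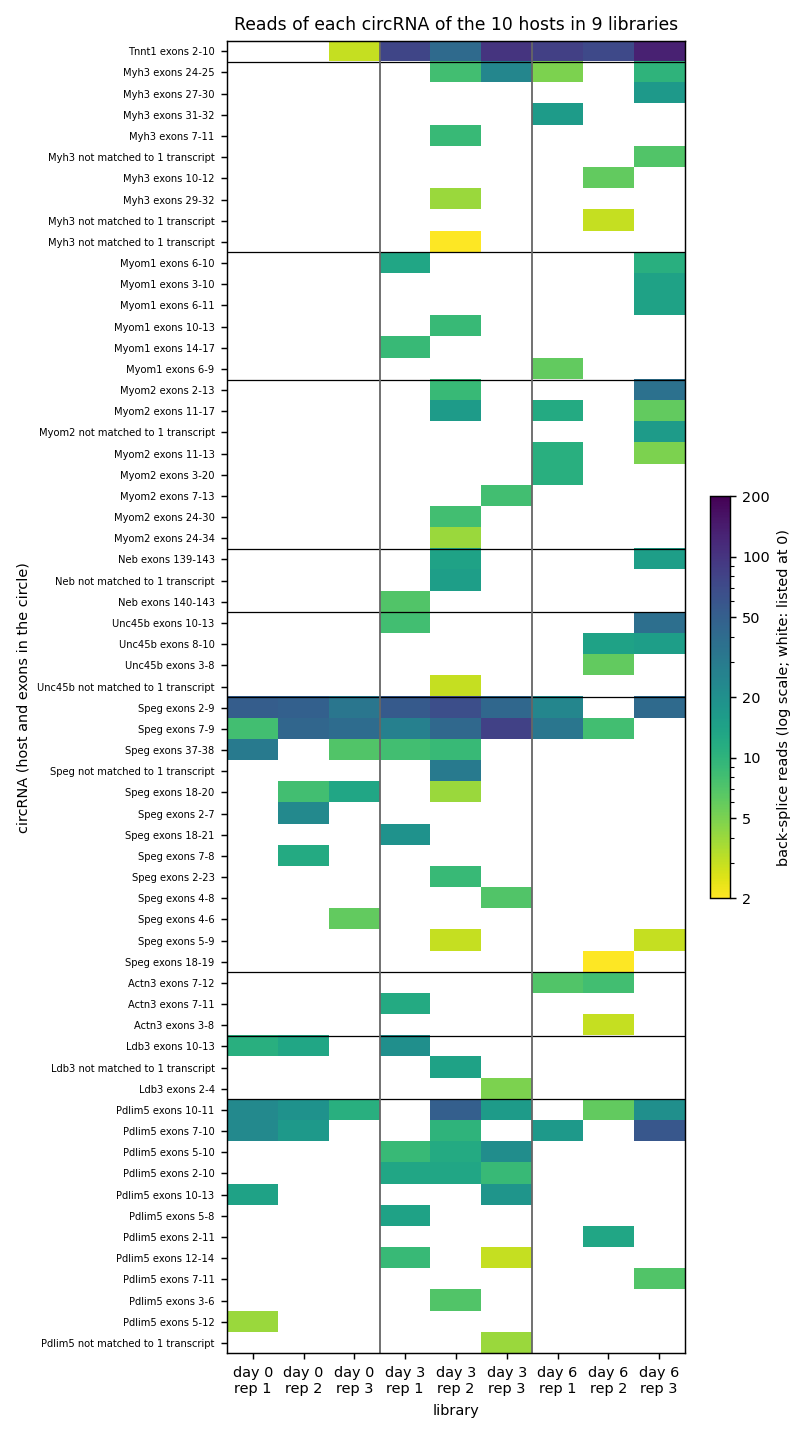
Reads of each of the 62 circRNAs (rows, grouped by host, with the exons enclosed) in each of the 9 libraries (columns). Colour is the number of reads on a log scale and white is listed at 0. The Tnnt1 row is filled in every day 3 and day 6 library, the first Speg row holds 361 reads in 8 libraries, and 40 of the rows are filled in 1 library only.

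Ldb3 encodes a Z-disc protein with PDZ and LIM domains, also called cypher or ZASP, that binds alpha-actinin. Its 3 circRNAs held 63 reads. Levels were 32.8, 51.2 and 0 CPM at day 0, 65.1, 49.2 and 14.7 CPM at day 3, and 0 in all 3 day 6 libraries. Day 6 stood below every day 3 library and overlapped day 0 through replicate 3. Of all tested hosts 6.94% were at 0 in every day 6 library. Ldb3 was at least 2.43-fold lower at day 6 than at day 0 (edgeR adjusted p = 0.284) and at least 3.73-fold lower than at day 3 (edgeR adjusted p = 0.736), and neither was called. Without day 0 replicate 2 the first bound was 1.44-fold. The circle of exons 10 to 13 of 14 (chr14:34536565-34544417, minus strand) held 44 reads, with 11, 13 and 0 at day 0 and 20, 0 and 0 at day 3. The other circRNAs of Ldb3, with 14 and 5 reads, were each listed in 1 day 3 library.

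Pdlim5 encodes a related PDZ and LIM domain protein, also called ENH, which is found at the Z-disc and outside muscle as well. It gave 12 circRNAs and 439 reads and was listed in all 9 libraries. Levels were 191, 142 and 41.8 CPM at day 0, 146, 323 and 209 CPM at day 3, and 82.4, 81.9 and 198 CPM at day 6. The days overlapped in all 3 comparisons. Means were 125 ± 75.9, 226 ± 89.5 and 121 ± 67.2 CPM (SD, n = 3). Day 3 differed from day 0 by 0.85 ± 0.75 on the log2 scale, and day 6 by -0.04 ± 0.75 from day 0 and by -0.89 ± 0.75 from day 3 (edgeR adjusted p = 0.800, 0.996 and 1). The day 6 against day 0 value took the opposite sign when single libraries were left out, for example 0.39 without day 0 replicate 1.

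Within Pdlim5 the days on which a circle was listed varied, and differences between circles were not tested. The 2 with the most reads held 61.3% of its reads. Exons 10 to 11 of 15 gave 23, 19 and 11 reads at day 0, 0, 50 and 16 at day 3, and 0, 6 and 20 at day 6. Exons 7 to 10 gave 23, 17 and 0 at day 0, 0, 10 and 0 at day 3, and 17, 0 and 57 at day 6. Both were present on all 3 days and both dropped to 0 in single libraries. At day 3 exons 5 to 10 (chr3:142277817-142304469) gave 9, 12 and 21 reads and exons 2 to 10 (chr3:142277817-142352885) gave 13, 13 and 9. Both of these circles were listed at 0 in all day 0 and day 6 libraries. They were the 2 Pdlim5 circles with reads in every day 3 library. Exons 5 to 10 were at least 4.03-fold and exons 2 to 10 at least 3.46-fold higher at day 3 than at day 0, and neither was called (edgeR adjusted p = 0.422 for each). The groups did not overlap for either, as for 9.65% of the circRNAs tested. Both circles passed the filter on low counts through their day 3 libraries alone. Their bounds, p-values and lack of overlap are therefore descriptions. The donor of exon 10 closed 4 of the 12 circles and 49.0% of Pdlim5 reads. Exons 7 to 10, 5 to 10 and 2 to 10 are among these circles. The donor of exon 11 closed 3 more and 37.6%.

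Speg encodes a kinase of the myosin light chain kinase family with immunoglobulin-like domains, which in striated muscle lies at the membranes of the triad. It had the most reads of the 10 hosts, 837 in 13 circRNAs, and was listed in all 9 libraries. Levels were 265, 536 and 372 CPM at day 0, 351, 572 and 389 CPM at day 3, and 276, 43.1 and 104 CPM at day 6. All day 6 libraries stood below those of day 3, and day 6 replicate 1 overlapped day 0. Means were 391 ± 136, 438 ± 118 and 141 ± 121 CPM (SD, n = 3). Day 3 differed from day 0 by 0.16 ± 0.50 on the log2 scale (edgeR adjusted p = 1). Day 6 against day 0 gave -1.48 ± 0.52 (edgeR adjusted p = 0.0923), and day 6 against day 3 gave -1.65 ± 0.52 (edgeR adjusted p = 0.699). None was called by edgeR. DESeq2 called the first of these day 6 differences, at -1.56 ± 0.51 with adjusted p = 0.0229. Without day 6 replicate 1 edgeR called both, at -2.36 against day 0 (adjusted p = 0.0021) and -2.53 against day 3 (adjusted p = 0.0134). Without day 0 replicate 1 it called the difference from day 0, at -1.72 (adjusted p = 0.0198). Leaving out other libraries weakened it. The difference from day 0 was -1.05 without day 6 replicate 2 and -1.21 without day 0 replicate 2 (edgeR adjusted p = 0.318 for each). Against day 3 the value was -1.23 without day 6 replicate 2 (edgeR adjusted p = 0.786). None of these was called.

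Speg reads came mainly from 1 donor site. The donor of exon 9 of 41 closed 5 of 13 circles and 703 reads, 84.0% of the total. The 2 leading circles held 644 reads, 76.9%. Exons 2 to 9, a circle of 2502 nt that is coding throughout, gave 51, 49 and 33 reads at day 0, 54, 66 and 43 at day 3, and 24, 0 and 41 at day 6. In CPM of all circRNA reads its means were 160 ± 28.8, 177 ± 52.8 and 68.3 ± 59.4 (SD, n = 3), and every day 6 library stood below every library of days 0 and 3. Among circRNAs tested 7.81% stood apart in this way below day 0 and 5.36% below day 3. The log2 fold change was -1.22 ± 0.91 against day 0 and -1.36 ± 0.91 against day 3 (edgeR adjusted p = 0.583 and 0.775), and neither was called. Exons 7 to 9, a circle of 441 nt, gave 8, 44 and 39 reads at day 0, 27, 42 and 82 at day 3, and 33, 8 and 0 at day 6. Its days overlapped, with log2 fold changes of 0.44 ± 1.07 from day 0 to day 3, -0.97 ± 1.09 from day 0 to day 6 and -1.41 ± 1.10 from day 3 to day 6. At day 6 the longer circle was at 0 in replicate 2 and the shorter in replicate 3. The next circle, exons 37 to 38 (chr1:75429060-75429620), lies far downstream and held 30, 0 and 7 reads at day 0, 8, 9 and 0 at day 3, and 0 at day 6.

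**Figure D3:**
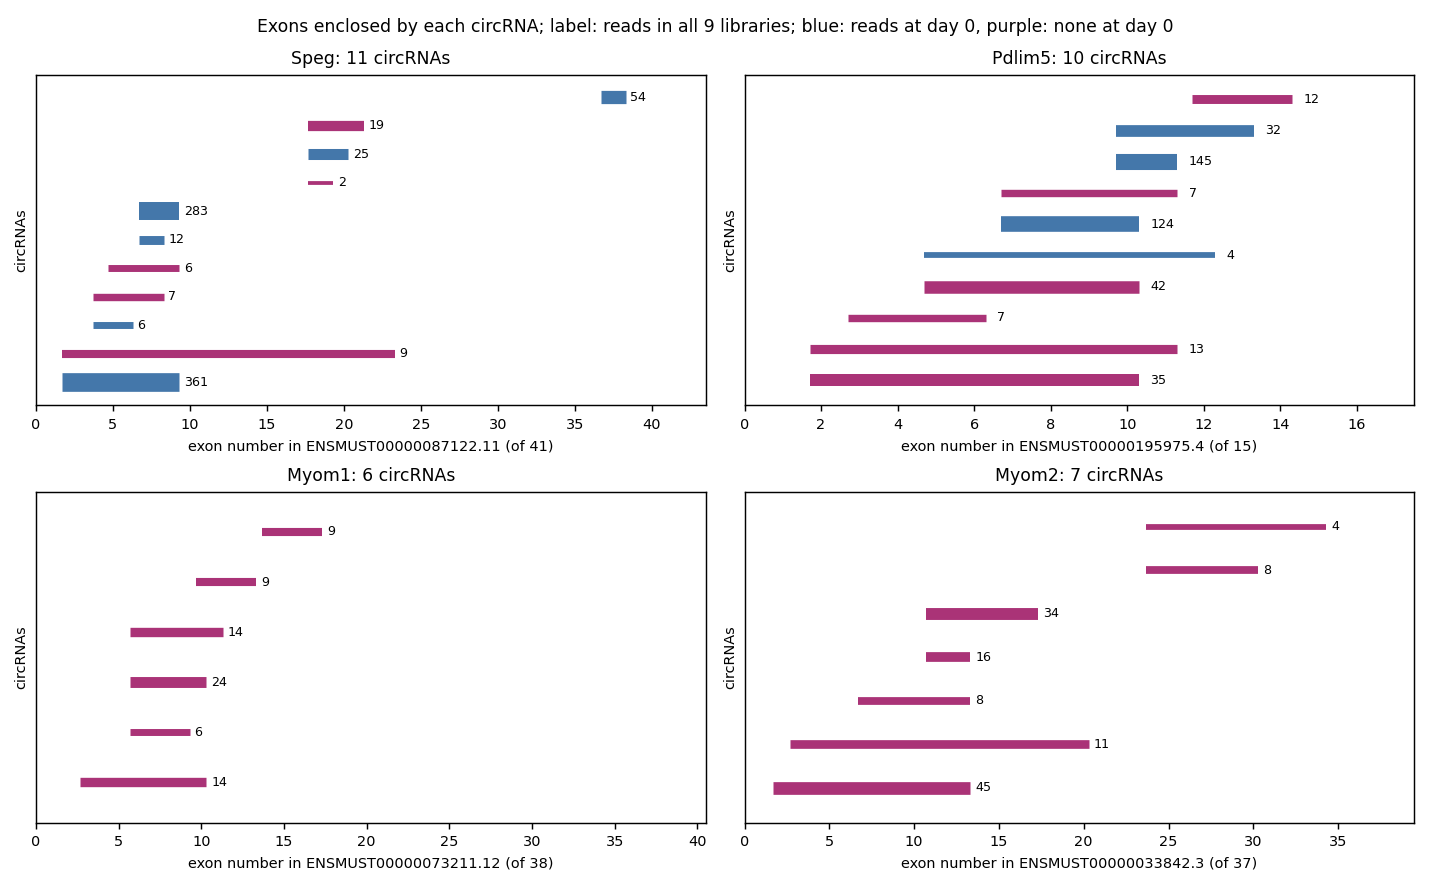
Exons enclosed by each circRNA of Speg, Pdlim5, Myom1 and Myom2 that could be placed on the named transcript, as bars along the exon number (horizontal axis). Numbers are reads over all 9 libraries, thicker bars have more reads, blue bars have reads at day 0 and purple bars have none there. The Speg circles with 361 and 283 reads end at the same exon, 9, and the Pdlim5 circles with 124, 42 and 35 reads end at exon 10.

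Taking the 62 circRNAs as they stand, 49 were listed at days 3 or 6 alone, 4 at day 0 alone and 9 at day 0 and later. The same split over all circRNAs is not given here. Days 3 and 6 together have more libraries than day 0, and most of the 62 were listed in 1 library, so this split is a description. Those listed in 1 library numbered 40 (64.5%, Wilson 95% interval 52.1 to 75.3), against 61.4% of all circRNAs, and none was listed in all 9. At the level of single circRNAs 10 of the 62 could be tested. EdgeR called 1 in day 3 against day 0 (1.58% of 8153 circRNAs tested), 1 in day 6 against day 0 (1.99%) and 0 in day 6 against day 3 (0.0613%). The call was the Tnnt1 circle each time, with log2 fold changes of 5.78 ± 0.95 (adjusted p = 3.8e-05) and 6.30 ± 0.96 (adjusted p = 5.7e-06) in edgeR. In a fit of days 0 and 3 alone its log2 fold change was 5.76 and it was not called (edgeR adjusted p = 0.0982). DESeq2 called 1, 1 and 0, and in day 6 against day 3 the exons 2 to 10 circle of Pdlim5 alone had an unadjusted edgeR p under 0.05 (0.0489). That circle passed the filter on low counts through its day 3 libraries alone, so this p is a description.

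**Figure D4:**
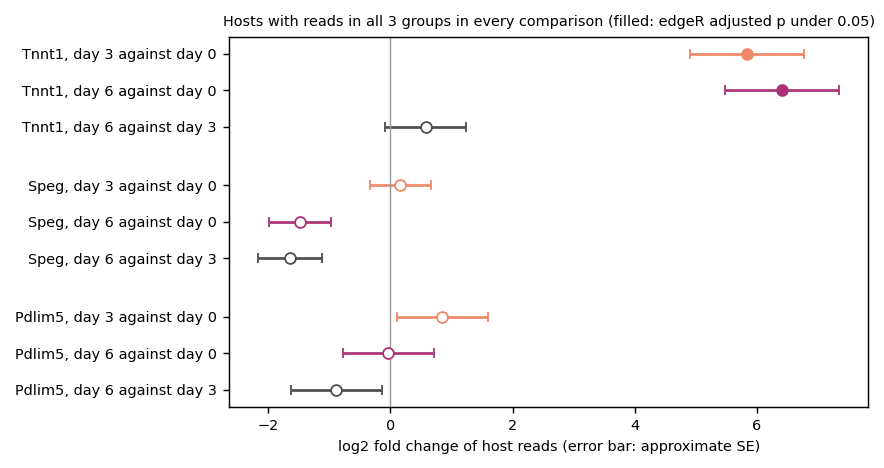
Log2 fold change of host reads (horizontal axis) for the 3 hosts with reads in each group, Tnnt1, Speg and Pdlim5, in the 3 comparisons. Dots are edgeR estimates, whiskers the approximate SE, and filled dots have an adjusted p under 0.05. The filled dots are those of Tnnt1 at 5.84 and 6.41, and the Speg dots for day 6 lie at -1.48 and -1.65.

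The features of the circles were set beside those of all circRNAs of the table, with no test of the difference. The deposited type was exonic for 60 of 62 (96.8%, Wilson 95% interval 89.0 to 99.1), against 87.6% of all. Both ends lay at annotated exon edges in 54 of 62 (87.1%, Wilson 95% interval 76.6 to 93.3), against 79.4% of all. Of the 53 that could be placed on 1 transcript, 50 were coding throughout. The median circle held 4 exons, as among all circRNAs, with spliced lengths of 265 to 4706 nt and a median of 650, against 588. Circles of a length divisible by 3 numbered 19 (35.8%, against 38.2%), and 8 began at exon 2 (15.1%, against 25.4%). Introns flanking the circles had medians of 2124 bp upstream and 2126 bp downstream, against 4892.5 and 3471 bp. They varied by gene, with median upstream introns of 88 bp for Actn3, 470 bp for Myh3 and 502.5 bp for Neb, and of 7112 bp for Myom1 and 9619 bp for Pdlim5. None of the 62 carried a circBase identifier (Wilson 95% upper limit 5.83%), against 2.72% of all. Circles of 1 host share sequence and splice sites, so these shares are descriptions.

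The 10 hosts were set beside a list of 68 other sarcomere genes. Of those, 37 gave circRNAs, 201 in number, and 15 hosts could be tested. EdgeR called 1 of the 15, Ttn, which encodes titin, in day 3 and again in day 6 against day 0, and 0 in day 6 against day 3, where 0 also had an unadjusted p under 0.05 and DESeq2 called 0. For medians, hosts absent from 1 group were entered at their bound, or at 0 where the bound was not above 1-fold. Hosts absent from both groups were entered at 0. The median log2 fold change of the 10 hosts was 1.27 from day 0 to day 3, 1.63 from day 0 to day 6 and 0.39 from day 3 to day 6. In the same order it was 0.54, 0.59 and 0.29 for the 15 and -0.02, -0.12 and -0.03 for all tested hosts. In the comparisons with day 0, 6 and 7 of the 10 entries are bounds set by the floor, and 6 hosts passed the filter through later libraries alone, so these medians are descriptions and support no difference between the lists. After Ttn with 15103 reads came Palld, which encodes the actin-bundling palladin, with 451, and Tmod3, which encodes a cap of thin filament ends, with 315. Among the 10 hosts Speg had the most, 837. Libraries of day 6 stood above all of day 0 for Tnnt1 and Myh3, 2 of the 10, as for 11% of tested hosts. In day 6 against day 3 Speg and Ldb3 stood lower without overlap, as did 5.9% of tested hosts.

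The hosts whose profiles over the 9 libraries were most like those of a member were ranked by Pearson's r of log2(CPM + 1), among the hosts tested. The 9 points share the day and runs of zeros, so r is a description. Tnnt1 was most like Hsf2bp (r = 0.995), Macf1 (0.990) and Mef2a (0.985). For Speg they were Tnrc18 (0.969), Akap7 (0.935) and Rps6kc1 (0.935), and for Pdlim5 Sf3a1 (0.906), Rars2 (0.902) and Rell1 (0.897). Ldb3 came nearest to Mapk8ip3 (0.964), 2700049A03Rik (0.940) and Map3k8 (0.920). Among hosts at 0 on day 0, Myh3 was most like Cap2 (0.999), Vps11 (0.998) and Tram1 (0.991), and Neb most like Uba1 (0.999), Afmid (0.981) and Etfdh (0.980). Myom1 was near to Rad50 (0.987) and Gprc5c (0.967), and Myom2 to Skp1a (0.975), Dhx8 (0.972) and Hspa9 (0.956). Unc45b was nearest to Vsir (0.982), Adgrd1 (0.975) and Sh3gl3 (0.962), and Actn3 to Tbc1d15 (0.966), Zdhhc20 (0.884) and Lrrc1 (0.871). Within the 10, the most alike were Myh3 and Myom2 (0.842), Myom1 and Neb (0.804), and Tnnt1 and Myh3 (0.755).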

How the data were processed

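The authors deposited 1 table of raw back-splice counts, with the position, class and host of each circRNA. BWA and the build GRCm38.p4 (mm10) are named per the submitters' processing notes. Which circRNA caller and filters were applied is not given in the sources used here. Counts above 0 start at 2. Counts were summed per host through the deposited Ensembl identifiers, with symbols and exons from GENCODE M21 of GRCm38, whose exon edges held 86.7% of starts and 86.8% of ends. EdgeR 4.0.16 (R 4.3.3) fitted all 9 libraries without a block, with TMM, filterByExpr (minimum count 5, minimum total 15) and a prior count of 0.125, on 8153 circRNAs and 4135 hosts. Adjusted p-values are Benjamini-Hochberg values over all features tested, with a threshold of 0.05. The SE is the absolute log2 fold change over the square root of F. Where a group was at 0, the fold is a bound that takes 3 reads in each of its libraries. DESeq2 1.42.0 and other settings were alternatives. The code was tested on simulated data. Members and lists were chosen with earlier results of these data known. Text names all 10 members, their circRNAs that passed the filter or lead in reads (3 per host), other sarcomere hosts called or leading in reads (3), and the 3 most alike hosts per member. Some hosts that this rule would name are not reported here.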

Additional observations from a re-analysis of the deposited data

How the results depend on the processing

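DESeq2 called 2 of the 10 hosts in day 3 against day 0 and 4 in day 6 against day 0 (3 higher, 1 lower). In the latter, edgeR without a filter on low counts called 2, with Myom2 at an adjusted p of 0.0353. The share of all tested hosts that DESeq2 called is not given here, so its counts cannot be set against the edgeR shares. Leaving out 1 library gave 1 to 2 calls in day 6 against day 0 and 0 to 1 in day 6 against day 3. For single circRNAs a fit of days 0 and 3 alone called 0 of 9 by edgeR. Among the 15 other sarcomere hosts DESeq2 called 2 and 3 in the comparisons with day 0. Directions of values that were not called changed as follows. Leaving out 1 library gave day 3 against day 0 ranges of -0.075 to 0.44 for Speg, -0.10 to 0.32 for its exons 2 to 9 circle and -0.056 to 0.82 for its exons 7 to 9 circle, and -0.63 to 0.39 for Pdlim5 in day 6 against day 0. With DESeq2 size factors in edgeR the exons 2 to 9 circle gave -0.0249 and with DESeq2 itself -0.025 in day 3 against day 0. The cause was not tested. Correlations of deviations gave no sign that replicate numbers pair the libraries. They lay between -0.0333 and -0.000518 for equal numbers and between -0.0245 and 0.0419 for unequal numbers. With many low counts a weak pairing could be missed. With the replicate block Tnnt1 gave 5.94 and 6.62 and no count of calls changed. The smallest count above 0 is 2, so a value of 0 may not exclude a single read, which limits what zeros show for hosts with few reads.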

Other observations

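Other sarcomere genes outside the 10 were also listed at 0 in every day 0 library. They were named after their values were seen. Nrap, which encodes a protein of forming myofibrils, had 0, 17.6 and 0 CPM at day 3 and 112, 77.6 and 59.1 at day 6, which is at least 7.72-fold above day 0 (edgeR adjusted p = 0.177). Mypn, which encodes the Z-disc protein myopalladin, had 0, 148 and 23.6 CPM at day 3 and 116, 69.0 and 44.9 at day 6. Every day 6 library of both hosts stood above day 0, as for 11% of tested hosts, and neither was called by edgeR. Other hosts of the list went the other way. Capza2, which encodes a subunit of the actin capping protein, had 0, 39.4 and 41.8 CPM at day 0, and Pdlim7, a PDZ and LIM domain gene, had 0, 110 and 68.3 CPM. Both were at 0 in every day 6 library, as 6.94% of tested hosts were, and neither was called. Nebl, a relative of Neb, was too low to test and had reads at day 0 alone, 15, 0 and 6.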
